A study of Mus musculus with 18 samples.

Results

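The genes described here are Chac1, Ddit3, Trib3, Nupr1, Stc2, Herpud1, Atf4, Atf3, Sesn2 and Hspa5. All but Hspa5 are taken here as genes of the ATF4 and CHOP arm of the cellular stress response. Hspa5 encodes the chaperone BiP, which parallel stress routes described below raise. Together these are 10 of 18193 genes that carry at least 1 Affymetrix probe set with a single gene symbol. Their probe sets are 21 of the 45037 that are not array controls. They were chosen on measured values of these arrays, from differences between induced pluripotent stem (iPS) cell lines and the embryonic stem (ES) cell line ESC2. Those differences are therefore given below as a description, with no test for the 10 genes. Every probe set that names only 1 of the 10 genes was kept: 3 each for Stc2, Atf4 and Hspa5, 2 each for Ddit3, Trib3, Nupr1, Herpud1 and Sesn2, and 1 each for Chac1 and Atf3.

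The study measured total RNA of mouse ES and iPS cells on 18 arrays, 3 for each of 6 lines. The ES lines were R1 (129X1/SvJ x 129S1 F1) and ESC2 (B6 x D2 F1). The iPS lines were IP14D-1, IP20D-3 and IP36D-3, all B6 x D2 F1, and IP14D-101, which was B6 x 129S2 F1. No treatment differed between lines by the labels: all were kept with leukaemia inhibitory factor (LIF) on a layer of mitomycin C treated mouse embryonic fibroblasts (MEF), in medium with fetal bovine serum or with a replacement for it. Which of these media each line received is not in the labels. The design text calls the 3 arrays of a line biological replicates without saying whether they came from separate cultures, so the p-values below measure the spread between those arrays, which may be technical. Each condition other than B6 x D2 iPS is 1 line, so line, strain and cell type cannot be told apart for it. The starting fibroblasts of the iPS lines were not analysed here.

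When a stress sensor phosphorylates the translation factor eIF2alpha, general protein synthesis slows while the mRNA of the transcription factor ATF4 is translated more efficiently. ATF4 then switches on genes of amino acid supply and a second transcription factor, CHOP, encoded by Ddit3, and both act together on targets such as Trib3 and Chac1. Unfolded protein in the endoplasmic reticulum (ER) triggers this route through the kinase PERK, and in parallel the ATF6 and IRE1-XBP1 routes, which raise ER chaperones, above all BiP, the product of Hspa5. Lack of amino acids, viral RNA or lack of haem reach eIF2alpha through other kinases.

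The promoters of 5 of the genes are shown because they hold the letters of the sites through which these routes are known to act. The sequences are the 250 bases before the RefSeq start of each gene in build GRCm38.p6, written 5′ to 3′ on the strand of the gene. Capitals mark a C/EBP-ATF composite site in Chac1, Nupr1, Atf3 and Herpud1, and the site named ERSE-II in Herpud1 and ERSE (ER stress response element) in Hspa5. Chac1 lies on the plus strand at chr2:119350992-119351241, Nupr1 on the minus strand at chr7:126625471-126625720 and Atf3 on the minus strand at chr1:191183334-191183583. Herpud1 lies on the plus strand at chr8:94386179-94386428 and Hspa5 on the plus strand at chr2:34771840-34772089.
Chac1: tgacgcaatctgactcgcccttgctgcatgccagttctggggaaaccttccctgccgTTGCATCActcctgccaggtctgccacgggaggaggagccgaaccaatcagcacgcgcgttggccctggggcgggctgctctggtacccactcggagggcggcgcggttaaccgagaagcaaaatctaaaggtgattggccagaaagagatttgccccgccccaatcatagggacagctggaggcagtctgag
Nupr1: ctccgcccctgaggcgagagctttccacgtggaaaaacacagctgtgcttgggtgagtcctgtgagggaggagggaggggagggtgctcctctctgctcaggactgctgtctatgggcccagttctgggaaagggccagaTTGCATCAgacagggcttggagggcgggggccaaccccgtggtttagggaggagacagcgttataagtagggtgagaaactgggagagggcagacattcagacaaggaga
Atf3: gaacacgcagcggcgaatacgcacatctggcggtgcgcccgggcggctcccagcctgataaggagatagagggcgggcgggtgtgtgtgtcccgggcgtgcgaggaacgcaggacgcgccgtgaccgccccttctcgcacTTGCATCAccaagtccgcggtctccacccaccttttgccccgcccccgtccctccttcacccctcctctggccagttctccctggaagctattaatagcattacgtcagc
Herpud1: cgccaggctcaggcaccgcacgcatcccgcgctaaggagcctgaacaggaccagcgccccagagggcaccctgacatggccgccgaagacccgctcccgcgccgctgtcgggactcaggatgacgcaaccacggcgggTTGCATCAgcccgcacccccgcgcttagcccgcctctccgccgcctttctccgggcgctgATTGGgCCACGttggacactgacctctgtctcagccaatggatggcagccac
Hspa5: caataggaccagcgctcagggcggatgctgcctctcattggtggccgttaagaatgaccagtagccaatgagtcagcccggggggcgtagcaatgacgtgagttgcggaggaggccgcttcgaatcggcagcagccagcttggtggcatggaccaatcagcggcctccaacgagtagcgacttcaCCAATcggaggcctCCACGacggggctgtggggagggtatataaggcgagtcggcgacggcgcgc

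The composite site was searched as TGATGNAA on both strands, and each of the 4 genes carried it as TTGCATCA, its reverse strand. It began 193 bases before the start of Chac1, 110 bases before the start of Nupr1 and of Atf3, and 112 bases before the start of Herpud1. Among 32851 mouse promoters of the same length, 3.45% held the composite letters, against 4 of the 10 genes. The full cyclic AMP response element, TGACGTCA, was in 1.55% of promoters and in none of the 10, while its shorter part TGACG, which the full element contains, was in 17.8% of promoters and in 6 of the 10. ERSE, CCAAT and CCACG separated by 9 bases, was in 0.113% of promoters. Hspa5 held it from 65 to 47 bases before its start, and so did 8 of the 18 further ER chaperone and ATF6 or XBP1 target genes with a promoter in the table. The ERSE-II letters were in 0.0304% of promoters, and Herpud1 was the 1 gene of the 10 that held it. These matches describe letters in a window, not binding.

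On the quality of the arrays, arrays of 1 line correlated at 0.990 to 0.998 over all probe sets, and at most 2.15% of values were identical between 2 arrays of a line, so no array was counted as a duplicate. The ratio of the 3′ to the 5′ actin probe sets, a measure of RNA degradation, was 1.53 ± 0.043 (SD, n = 3) in ESC2 and lower in each other line, whereas the same ratio for Gapdh was lowest in ESC2, at 0.891, and 0.906 to 0.961 in the other lines. Whether RNA quality bears on the differences from ESC2 was not tested. The 12 pluripotency markers lay above the array median in all 6 lines. Of 17 measured fibroblast markers, 10 lay above the array median in R1, 10 in ESC2, 12 in IP14D-1, 6 in IP14D-101, 3 in IP20D-3 and 5 in IP36D-3. Array intensities have a floor of background, so no marker reads 0. In such bulk RNA, fewer cells of a type and less RNA per cell cannot be told apart.

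All levels below are log2 of the deposited array intensity, on which 1 unit is a 2-fold step, and the median probe set of an array lay between 4.86 and 4.93. Of the 21 probe sets, 17 were above that median on all 18 arrays. Levels of different genes are not compared, because probe sets differ in their response. The first probe set given for a gene is the one with its highest mean over all arrays.

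Chac1, a glutathione-degrading enzyme induced by ATF4 and CHOP, spanned the lines from near the array median to a high level. Its 3 arrays read 5.68, 5.62 and 5.60 in ESC2, 7.86, 7.38 and 7.71 in R1, and 7.31, 7.06 and 7.63 in IP14D-101. They read 10.10, 9.84 and 8.33 in IP36D-3, 11.10, 11.24 and 10.59 in IP14D-1, and 10.74, 10.65 and 10.80 in IP20D-3. All 9 arrays of the B6 x D2 iPS lines lay above all 9 others, the arrays of IP14D-1 and IP20D-3 overlapped, and those of R1 and IP14D-101 overlapped above ESC2. The mean exceeded that of ESC2 40.6-fold in IP14D-1, 34.2-fold in IP20D-3, 13.8-fold in IP36D-3, 4.05-fold in R1 and 3.26-fold in IP14D-101.

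**Figure D1:**
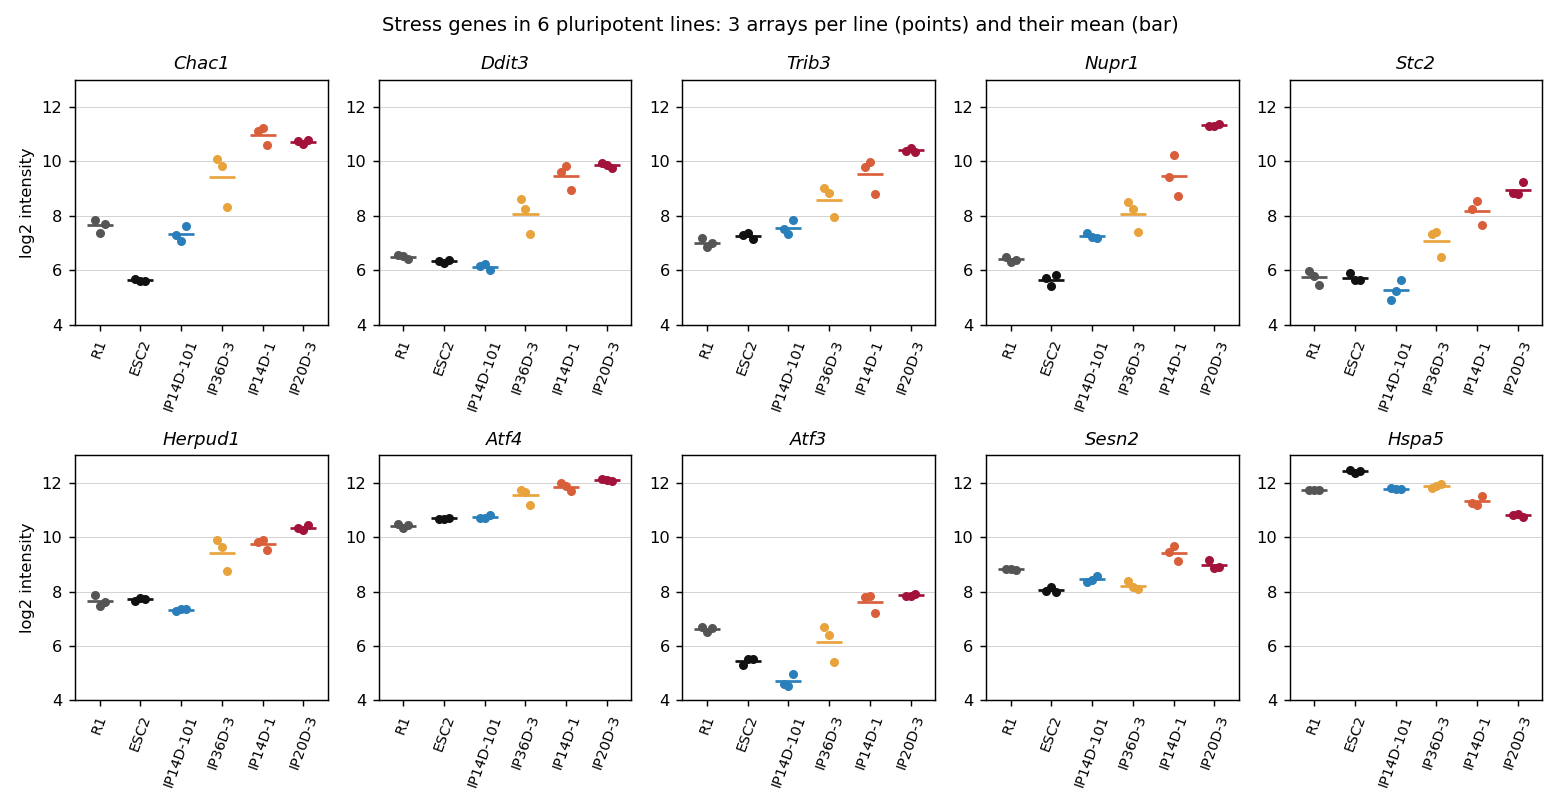
Each panel shows 1 of the 10 genes, with the log2 array intensity on the vertical axis, the 6 lines on the horizontal axis, a point for each of 3 arrays and a bar for their mean. For Chac1, Ddit3, Nupr1, Herpud1 and Stc2 the 3 lines at the right (IP36D-3, IP14D-1, IP20D-3) stand above the 3 at the left, and for Hspa5 the order is reversed for IP14D-1 and IP20D-3.

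Ddit3 encodes CHOP, the transcription factor that links prolonged stress to cell death. Its probe set 1417516_at read 6.35, 6.27 and 6.37 in ESC2, 6.54, 6.53 and 6.42 in R1 and 6.15, 6.21 and 6.02 in IP14D-101. It read 8.61, 8.23 and 7.32 in IP36D-3, 9.60, 9.82 and 8.95 in IP14D-1 and 9.95, 9.88 and 9.74 in IP20D-3. The 3 low lines lay within a narrow band and yet did not overlap each other, while IP14D-1 and IP20D-3 overlapped at the top. The mean was 11.5-fold that of ESC2 in IP20D-3, 8.75-fold in IP14D-1 and 3.31-fold in IP36D-3. A second, dimmer probe set, 1443897_at, gave smaller differences in the same lines: 4.73-fold, 4.13-fold and 1.83-fold.

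Trib3, a pseudokinase that CHOP induces and that restrains AKT and ATF4 itself, read 7.31, 7.36 and 7.14 in ESC2, 7.19, 6.85 and 6.99 in R1 and 7.50, 7.34 and 7.86 in IP14D-101 on 1456225_x_at. The same probe set read 9.01, 8.83 and 7.94 in IP36D-3, 9.78, 9.98 and 8.81 in IP14D-1 and 10.38, 10.50 and 10.34 in IP20D-3. IP20D-3 stood alone above the rest, IP14D-1 and IP36D-3 overlapped below it, and at the bottom ESC2 overlapped with R1 and with IP14D-101, which did not overlap each other. Against ESC2 the difference was 8.82-fold in IP20D-3, 4.78-fold in IP14D-1 and 2.51-fold in IP36D-3. On the other probe set, 1426065_a_at, IP14D-1 (8.13-fold) and IP20D-3 (8.52-fold) overlapped, and IP36D-3 overlapped with IP14D-101.

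Nupr1, a small chromatin-associated protein of the stress response, had the widest range over lines of the 10 genes, 5.68 log2 units. It read 5.71, 5.42 and 5.83 in ESC2, 6.50, 6.32 and 6.37 in R1 and 7.39, 7.22 and 7.19 in IP14D-101 on 1419665_a_at. It read 8.50, 8.23 and 7.42 in IP36D-3, 9.44, 10.23 and 8.72 in IP14D-1 and 11.31, 11.30 and 11.36 in IP20D-3. On this probe set no 2 neighbouring lines in the order overlapped, and IP20D-3 was the line with the tightest arrays at the highest level. The mean was 51.1-fold that of ESC2 in IP20D-3, 14.0-fold in IP14D-1, 5.28-fold in IP36D-3, 3.07-fold in IP14D-101 and 1.68-fold in R1.

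Stc2, a secreted glycoprotein induced by ER stress, read 5.89, 5.63 and 5.64 in ESC2, 5.95, 5.78 and 5.47 in R1 and 4.92, 5.24 and 5.66 in IP14D-101 on 1449484_at. It read 7.35, 7.39 and 6.48 in IP36D-3, 8.25, 8.56 and 7.67 in IP14D-1 and 8.84, 8.81 and 9.22 in IP20D-3. The 3 B6 x D2 iPS lines did not overlap each other, and the 3 low lines did. The probe sets of Stc2 disagreed on IP36D-3: its mean was 2.56-fold that of ESC2 on 1449484_at and 1.49-fold on 1419503_at, and on 1445186_at (1.44-fold) its arrays overlapped those of ESC2 and lay below R1 and IP14D-101.

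Herpud1, an ER membrane protein that helps to clear misfolded proteins, read 7.67, 7.74 and 7.73 in ESC2, 7.87, 7.45 and 7.60 in R1 and 7.28, 7.37 and 7.36 in IP14D-101 on 1448185_at. It read 9.88, 9.65 and 8.77 in IP36D-3, 9.82, 9.88 and 9.54 in IP14D-1 and 10.33, 10.27 and 10.44 in IP20D-3. IP20D-3 was highest, IP14D-1 and IP36D-3 overlapped, and IP14D-101 was lowest. The mean was 6.21-fold that of ESC2 in IP20D-3, 4.09-fold in IP14D-1 and 3.29-fold in IP36D-3, and the second probe set kept that order of the 3 lines.

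Atf4, the transcription factor at the head of this arm, was bright in all lines on 1448135_at. Its arrays read 10.66, 10.68 and 10.72 in ESC2, 10.50, 10.33 and 10.45 in R1 and 10.71, 10.69 and 10.81 in IP14D-101. They read 11.74, 11.66 and 11.19 in IP36D-3, 11.98, 11.86 and 11.70 in IP14D-1 and 12.15, 12.10 and 12.06 in IP20D-3. The 3 B6 x D2 iPS lines lay above the other 3, by 2.67-fold against ESC2 in IP20D-3, 2.24-fold in IP14D-1 and 1.80-fold in IP36D-3. The other probe sets of Atf4 did not share this pattern. On 1438992_x_at ESC2 had a mean of 9.77, between IP20D-3 (10.12) and IP36D-3 (9.66), with R1 lowest at 8.42, and 1439258_at stayed near the array median, with line means from 4.62 to 5.01.

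Atf3, a stress-induced repressor and partner of the same transcription factor family, read 5.31, 5.53 and 5.50 in ESC2, 6.70, 6.50 and 6.65 in R1 and 4.60, 4.52 and 4.97 in IP14D-101. It read 6.69, 6.39 and 5.40 in IP36D-3, 7.79, 7.84 and 7.20 in IP14D-1 and 7.82, 7.84 and 7.91 in IP20D-3. IP14D-1 and IP20D-3 overlapped at the top and IP14D-101 was lowest, but IP36D-3 overlapped with both R1 and ESC2. Against ESC2 the difference was 5.31-fold in IP20D-3, 4.48-fold in IP14D-1, 2.25-fold in R1 and 1.63-fold in IP36D-3, and IP14D-101 was 1.68-fold below ESC2.

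Sesn2, a sensor of leucine that restrains the growth kinase complex mTORC1, had the smallest range of line means on the brightest probe set of each gene, 1.35 log2 units. It read 8.02, 8.16 and 8.0 in ESC2, 8.82, 8.81 and 8.80 in R1, 8.34, 8.44 and 8.56 in IP14D-101, 8.38, 8.18 and 8.08 in IP36D-3, 9.45, 9.68 and 9.10 in IP14D-1 and 9.16, 8.85 and 8.91 in IP20D-3 on 1451599_at. IP14D-1 and IP20D-3 overlapped above R1, and IP36D-3 overlapped with IP14D-101 and ESC2. The difference against ESC2 was 2.55-fold in IP14D-1, 1.89-fold in IP20D-3, 1.68-fold in R1 and 1.11-fold in IP36D-3.

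Hspa5, the ER chaperone BiP and the classic readout of the ATF6 route, ran the other way. On 1416064_a_at it read 12.47, 12.34 and 12.44 in ESC2, 11.75, 11.74 and 11.73 in R1 and 11.79, 11.78 and 11.75 in IP14D-101. It read 11.79, 11.87 and 11.97 in IP36D-3, 11.25, 11.19 and 11.52 in IP14D-1 and 10.82, 10.83 and 10.76 in IP20D-3. ESC2 lay above every other line and IP20D-3 below every other line, with 3.07-fold between them, and IP14D-1 stood 2.14-fold below ESC2. The probe set 1427464_s_at also had ESC2 highest and IP20D-3 lowest, 4.57-fold apart, whereas on 1447824_x_at ESC2 overlapped with R1 and IP14D-101 and IP20D-3 lay 1.77-fold below ESC2.

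**Figure D2:**
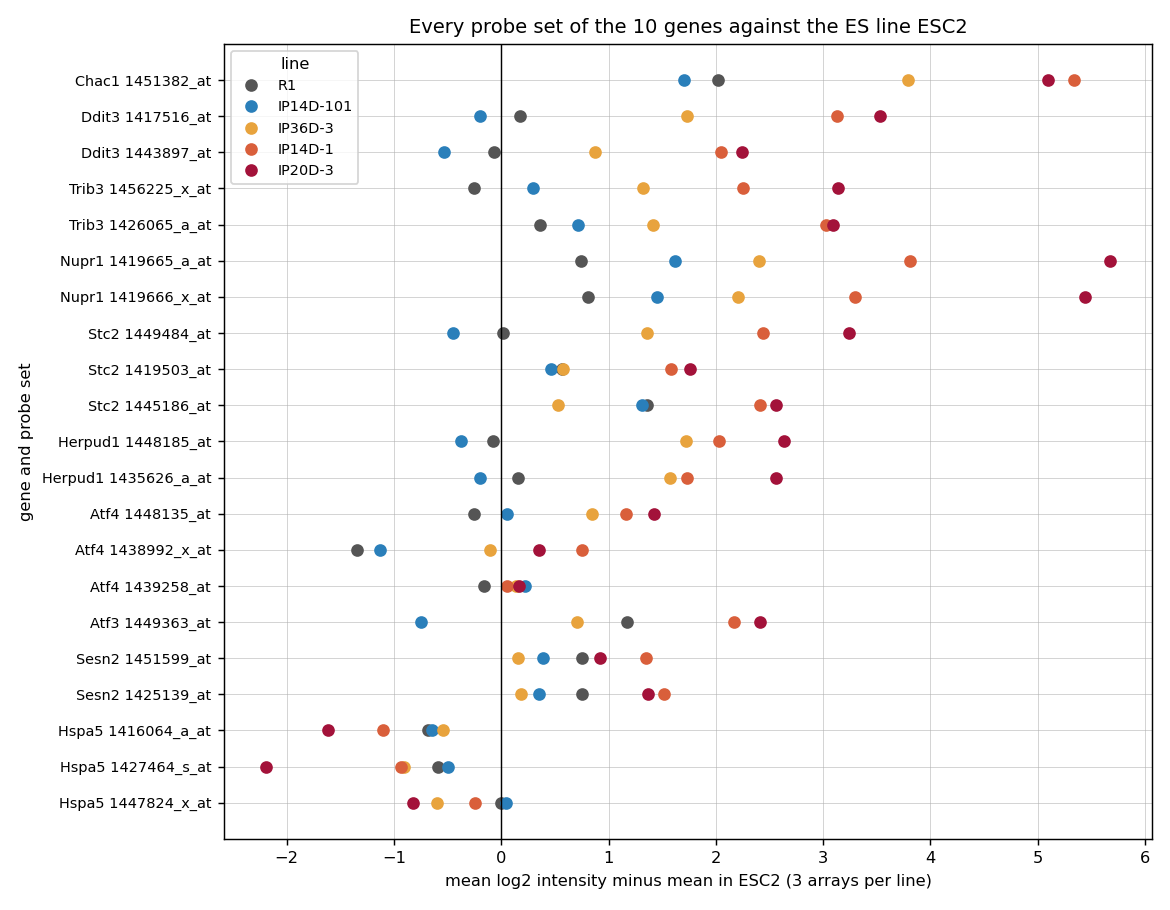
Each row is 1 of the 21 probe sets and each point the mean log2 intensity of a line (3 arrays) minus the mean of ESC2, so 0 is the level of ESC2. Points of IP14D-1 and IP20D-3 lie to the right for every probe set but those of Hspa5, with the near-median Atf4 probe set 1439258_at closest to 0 among them, and Nupr1 in IP20D-3 reaches 5.68.

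Comparisons without ESC2 leave out the line against which the genes were chosen. The arrays of IP14D-1, IP20D-3 and IP36D-3 were nevertheless in view when the genes were proposed, and they helped to choose them. The counts and p-values of comparisons among these 3 lines are therefore not independent of the choice and may be too favourable. The 4 such comparisons were tested with limma over all 45037 probe sets, and a probe set was called where its means differed by 1 log2 unit or more, either way, with a Benjamini-Hochberg adjusted p below 0.05. For IP14D-101 against R1, the iPS and ES lines that are not B6 x D2, the difference of means uses none of the arrays of the 3 high lines. Its standard error and p-value do use them, because the fit takes the variance of a probe set from all lines, ESC2 included. There 1 of the 21 probe sets was called, against 1.86% of all probe sets, and the median over the 21 was -0.05. That 1 was Atf3, lower in IP14D-101 by a log2 difference of -1.92 ± 0.24 (SE; limma adjusted p = 1.17e-05, 3 arrays a line), with no overlap of the arrays.

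Between IP14D-1 and IP36D-3, both B6 x D2 iPS lines, 12 of the 21 probe sets were called, all higher in IP14D-1, against 3.14% of all probe sets. The median over the 21 was 1.09, against 0.02 over all probe sets. The 12 belonged to 7 genes: Chac1, Ddit3, Trib3, Nupr1, Stc2, Atf3 and Sesn2. Trib3 was called on 1426065_a_at (1.61) and not on its brightest probe set, 1456225_x_at (0.93), where the arrays overlapped. Ddit3 rose by 1.40 ± 0.24 (SE; limma adjusted p = 1.40e-04), Chac1 by 1.55 ± 0.31 (SE; limma adjusted p = 6.70e-04) and Sesn2 by 1.20 ± 0.12 (SE; limma adjusted p = 8.12e-07). Herpud1, with differences of 0.31 and 0.16, and Atf4, with 0.32 on its brightest probe set, were not called. Array 2 of IP14D-1 and array 3 of IP36D-3 carried part of these calls. Without the former the difference was 0.70 for Nupr1 (1419666_x_at), 0.89 and 0.88 for Stc2 (1449484_at and 1419503_at) and 0.99 for Ddit3 (1443897_at), and without the latter 0.80 for that Nupr1 probe set and 0.79 and 0.82 for those of Stc2, all under the log2 threshold of 1.

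Between IP20D-3 and IP36D-3, 14 of the 21 probe sets were called, against 3.42% of all probe sets, and the median over the 21 was 1.19 against -0.01 over all. Higher in IP20D-3 were 12 of them, in the same 7 genes, and lower were 2 of the 3 probe sets of Hspa5, at -1.07 ± 0.08 and -1.29 ± 0.09 (SE; limma adjusted p = 3.69e-08 and 1.06e-08). Nupr1 rose most, by 3.28 ± 0.28 (SE; limma adjusted p = 8.33e-08), which is 9.69-fold, and Ddit3 rose by 1.80 ± 0.24 (SE; limma adjusted p = 1.16e-05). Chac1 rose by 1.31 ± 0.31 (SE; limma adjusted p = 3.16e-03), but without array 3 of IP36D-3 its difference was 0.76 and it was no longer called. Sesn2 was called on 1425139_at (1.18) and not on its brightest probe set, 1451599_at (0.76). Herpud1, at 0.92 and 0.99, stayed just short of the threshold.

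IP20D-3 and IP14D-1 differed in 3 of the 21 probe sets, against 4.43% of all probe sets. Both probe sets of Nupr1 were higher in IP20D-3, by 1.86 ± 0.28 and 2.15 ± 0.28 (SE; limma adjusted p = 3.46e-05 and 7.90e-06), and Hspa5 was lower on 1427464_s_at, by -1.26 ± 0.09 (SE; limma adjusted p = 9.88e-09). Chac1 (-0.25), Ddit3 (0.40 on its brighter probe set) and Atf3 (0.24) were not called between these lines.

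**Figure D3:**
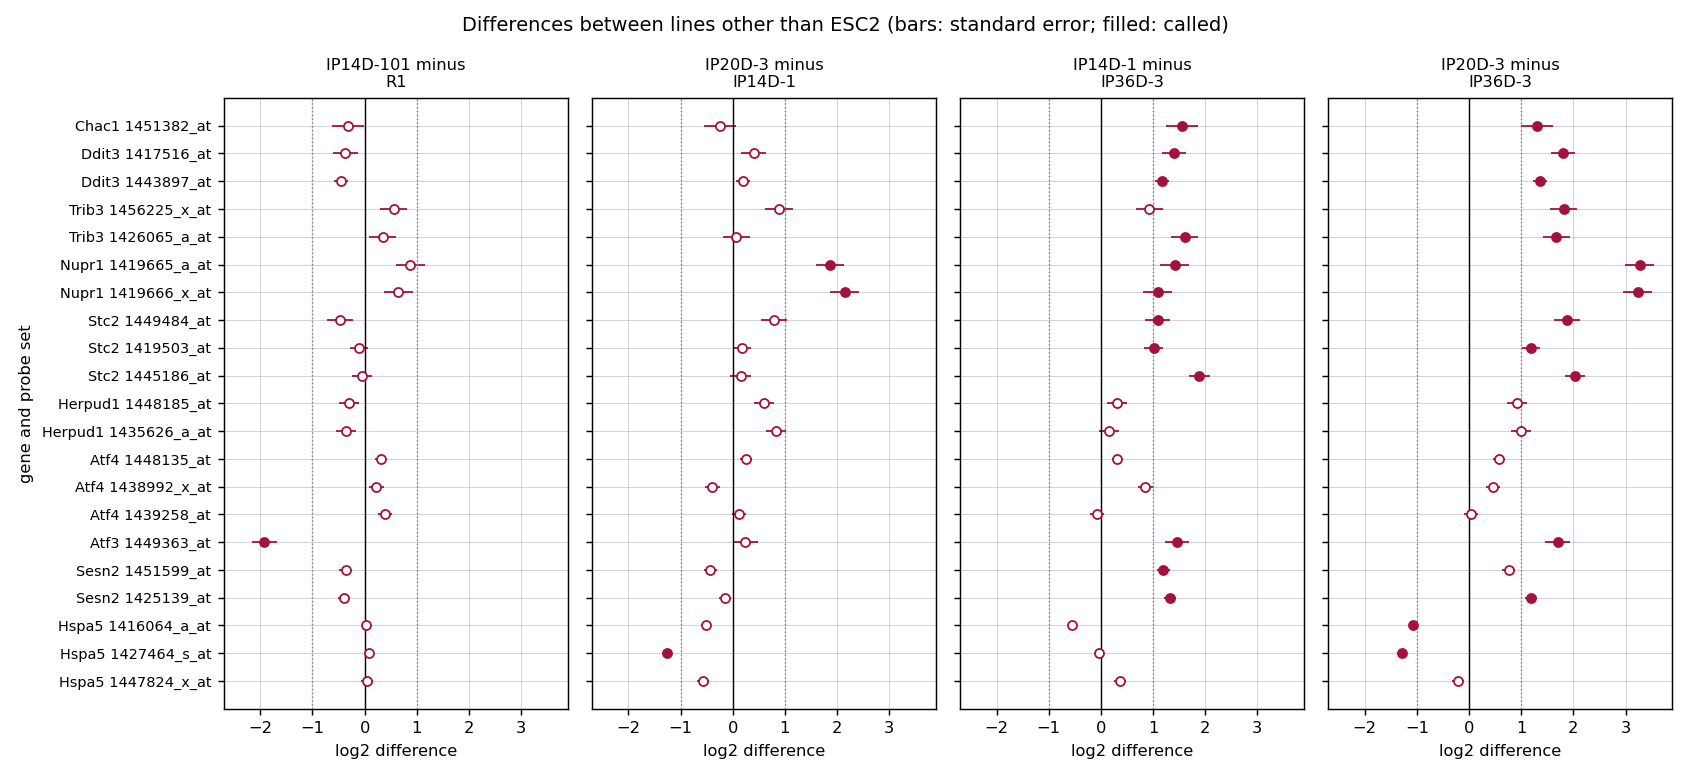
Each panel is 1 comparison between lines other than ESC2, with the log2 difference of means on the horizontal axis, its standard error as a bar, and a filled point where limma called the probe set. The panel of IP14D-101 minus R1 holds 1 filled point, Atf3, and the panels of IP14D-1 and IP20D-3 minus IP36D-3 hold 12 and 14.

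Markers of the feeder fibroblasts also differed between these lines. The summed intensity of the 17 markers ran from 4771 to 5147 over the arrays of IP14D-1, from 3531 to 3916 in IP20D-3 and from 2420 to 2562 in IP36D-3. Of the 17, 9 were called higher in IP14D-1 than in IP36D-3, among them the collagens Col1a1, Col1a2, Col3a1 and Col5a2, and 9 were called lower in IP20D-3 than in IP14D-1. Between IP20D-3 and IP36D-3 none was called higher and 1, Thbs1, lower, although the summed intensity was higher in IP20D-3 without overlap. Over all genes, 3.39% were called between IP14D-1 and IP36D-3, 4.96% between IP20D-3 and IP14D-1 and 4.24% between IP20D-3 and IP36D-3. The part of feeder RNA in the differences between these lines was not tested.

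Within a line, the arrays also differed. Array 3 of IP36D-3 was lower than the mean of the other 2 arrays in 18 of the 21 probe sets, the exceptions being the 3 of Hspa5. It was lower by a log2 of at least 0.5 in 13 of 21, against 0.779% of all probe sets, with a median of -0.57 against -0.01 over all. Chac1 was lower by -1.64, Ddit3 (1417516_at) by -1.10 and Atf3 by -1.14. Array 3 of IP14D-1 was likewise lower in 18 of 21, and by at least 0.5 in 11 of 21, against 0.473% of all probe sets, with Nupr1 at -1.12 and Trib3 at -1.07 on their brightest probe sets. These arrays were singled out after their values were seen and are given without a test. Of 29 further targets of ATF4 and CHOP, 1 probe set each, 24 were lower at all in array 3 of IP36D-3 and 2 by at least 0.5, against 0.676% of all genes. In array 3 of IP14D-1, 27 were lower at all and 9 by at least 0.5, against 0.412% of all genes. Each share given here is for the cut of 0.5. No share was counted for lower at all. The median over all probe sets was -0.005 for array 3 of IP36D-3 and 0.014 for that of IP14D-1. Beside this, the 18S ribosomal RNA probe sets averaged 107.2, 146.7 and 229.7 over the 3 arrays of IP36D-3, highest on array 3. They averaged 46.9, 57.5 and 56.6 in IP14D-1, and 110.8, 211.1 and 524.8 in IP20D-3. On the brightest probe set of each gene, array 3 of IP20D-3 was highest of its line for Chac1, Nupr1, Stc2, Herpud1 and Atf3. It was lowest for Ddit3, Trib3, Atf4 and Hspa5, and between the others for Sesn2. Whether the 18S level bears on these differences was not tested.

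**Figure D4:**
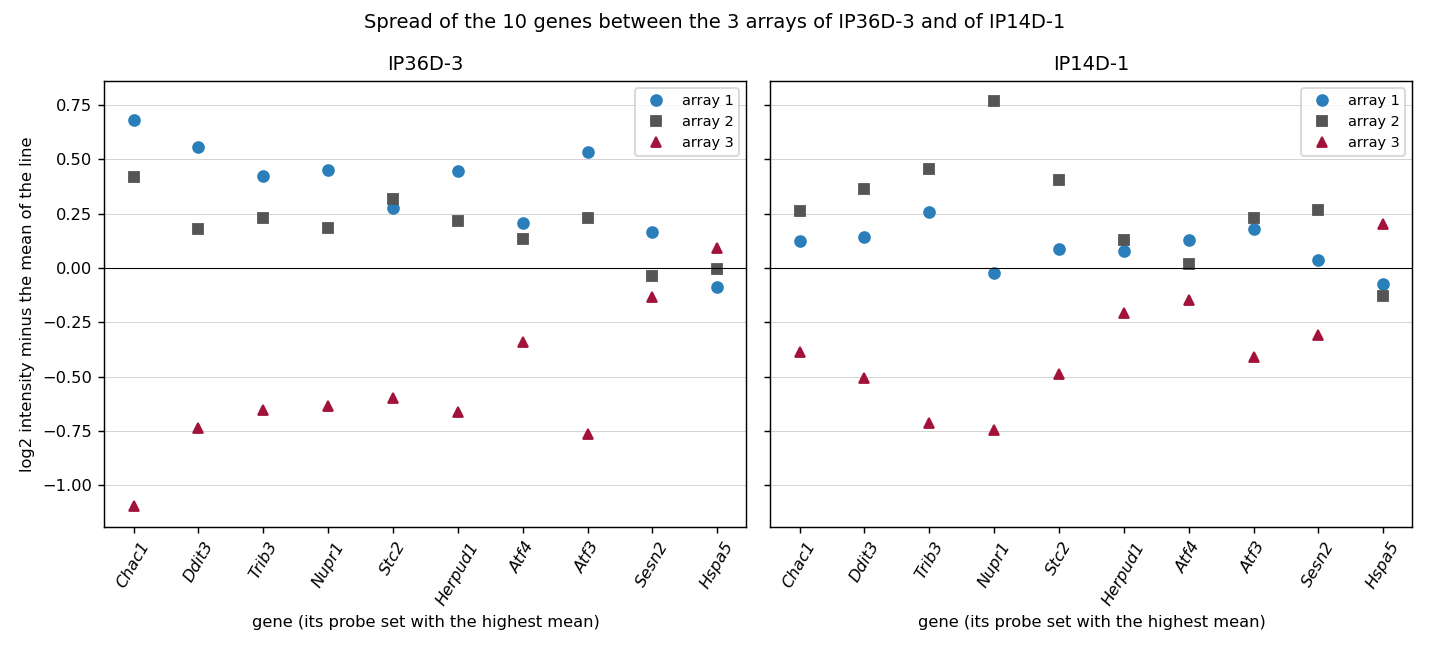
For IP36D-3 and IP14D-1, the vertical axis gives each array's log2 intensity minus the mean of its line, for the brightest probe set of each of the 10 genes on the horizontal axis. Array 3 (triangles) lies below the other arrays for every gene but Hspa5, where it lies above them.

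The other genes of the pathway were taken as lists, and for each gene the probe set with the highest mean was used. Of 29 measured further targets of ATF4 and CHOP, 14 were called higher in IP14D-1 than in ESC2, 18 in IP20D-3, 1 in IP36D-3, 6 in IP14D-101 and 4 in R1, and none lower in any of them. The count for IP36D-3 was 4 without its array 3 and 2 without array 1 or array 2 of ESC2. Over all genes the share called either way in those comparisons, which share the ESC2 arrays, was 3.44% for IP14D-1, 8.60% for IP20D-3, 3.38% for IP36D-3, 8.73% for IP14D-101 and 8.13% for R1. The median difference of the 29 was 0.98, 1.29, 0.33, 0.37 and 0.44 in that order of lines, against 0.06, 0.01, 0.05, 0.15 and 0.15 over all genes. The list was chosen with earlier results of these arrays known, so its direction is not independent evidence.

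The mitochondrial folate enzyme Aldh1l2 was higher than in ESC2 by 3.39 in IP20D-3 and 1.17 in IP14D-1. Pck2, which makes phosphoenolpyruvate in mitochondria, was the 1 target called in all 5 comparisons, from 1.42 in R1 to 2.95 in IP20D-3. The amino acid carriers Slc7a1 (2.32 and 1.30), Slc6a9 (2.19 and 1.87), Slc1a4 (2.16 and 1.95) and Slc7a5 (1.15 and 1.35), given for IP20D-3 and then IP14D-1, were called in both lines. So were Cth, the cysteine-forming enzyme (2.45 and 1.01), and the lipoprotein receptor Vldlr (3.05 and 2.39). Asns, asparagine synthetase, was called in IP20D-3 (1.52) and not in IP14D-1 (0.74). The cystine carrier Slc7a11 (0.39 and 0.50) was called in neither. Its line means, from 2.93 to 3.43, lay below the array median, where a change could be missed.

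In the comparisons without ESC2, none of the 29 targets was called between IP14D-101 and R1, where 2.52% of all genes were. Called higher in IP14D-1 than in IP36D-3 were 9, against 3.39% of all genes, and 13 were higher in IP20D-3 than in IP36D-3, against 4.24% of all genes. The 9 fell to 4 without array 2 of IP14D-1 and to 5 without array 3 of IP36D-3. Aldh1l2 (2.22), Cth (1.44), Psph (1.24), the last enzyme of serine synthesis, and Slc7a1 (1.02) were called higher in IP20D-3 than in IP14D-1, against 4.96% of all genes. None of the 29 was called lower in any of these comparisons.

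Of 12 aminoacyl-tRNA synthetases, which charge tRNAs and respond to ATF4, 7 were called higher than ESC2 in IP20D-3, 2 in IP14D-1, 2 in R1, 1 in IP36D-3 and 1 in IP14D-101. Over all genes the share called against ESC2 either way was 8.60% for IP20D-3, 3.44% for IP14D-1, 8.13% for R1, 3.38% for IP36D-3 and 8.73% for IP14D-101. The 1 call in IP14D-101 is near its share. Aars, the alanine enzyme, was called higher than ESC2 in each of the 5 lines, from 1.28 in IP14D-101 to 1.85 in IP20D-3. Among 6 measured genes of the eIF2alpha kinases and phosphatase, Ppp1r15a, which encodes the stress-induced phosphatase subunit GADD34, was called higher than ESC2 in IP14D-1 (1.61), IP20D-3 (1.38), IP36D-3 (1.09) and R1 (1.08). The kinase PERK (Eif2ak3) was not called, at -0.37 in IP14D-1 and -0.46 in IP20D-3, and neither was GCN2 (Eif2ak4), at -0.37 and -0.16.

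Among 11 partner factors of the bZIP class, 3 were called higher than ESC2 and 2 lower in IP20D-3, 2 higher in IP14D-1 and in R1, 1 higher in IP14D-101 and none in IP36D-3. The share of all genes called either way was 8.60% in IP20D-3, 3.44% in IP14D-1, 8.13% in R1, 8.73% in IP14D-101 and 3.38% in IP36D-3. The count in IP14D-101 is near its share. Cebpg (1.24) was higher and Cebpd (-1.06) lower in IP20D-3, as was Jun, with a mean of 5.70 against 6.71 in ESC2. Cebpb was higher than ESC2 by 2.42 in IP20D-3 and 2.07 in IP14D-1, and Jdp2 by 3.21 and 2.55. Both were also called higher in IP20D-3 and IP14D-1 than in IP36D-3, Jdp2 by 2.74 and 2.08 and Cebpb by 1.44 and 1.10.

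The ER chaperones were not among the genes called higher in the 3 B6 x D2 iPS lines. Of 22 ER chaperones and other ATF6 or XBP1 targets, none was called higher than ESC2 in IP14D-1, IP20D-3 or IP36D-3, with medians of -0.42, -0.52 and -0.17. The median was also below 0 in IP14D-101 (-0.26) and R1 (-0.23). Over all genes, 3.44%, 8.60% and 3.38% were called either way in IP14D-1, IP20D-3 and IP36D-3. A count of none called higher among 22 is near these shares. Manf, a secreted ER survival factor, was called lower in IP14D-1 (-1.05) and IP20D-3 (-1.29), as was the disulfide isomerase Pdia4 in IP20D-3 (-1.03). Hsp90b1, the ER member of the HSP90 family, was at -0.91 in IP20D-3 and -0.52 in IP14D-1 and was not called. Xbp1 itself was called lower than ESC2 in IP14D-1 (-1.05), IP20D-3 (-1.23) and IP36D-3 (-1.02). ESC2 had its highest mean (10.29), and R1 (9.51) and IP14D-101 (9.77) also lay below ESC2, without a call. Atf6 was called higher than ESC2 in IP20D-3 (1.35). Between IP20D-3 and IP36D-3, where Hspa5 fell, none of the 22 was called and their median was -0.22. Calr and Syvn1 were called lower in IP20D-3 than in IP14D-1 (-1.13 and -1.11), and Sdf2l1 lower in IP14D-1 than in IP36D-3 (-1.28). Over all genes, 4.24%, 4.96% and 3.39% were called in these 3 comparisons, in that order.

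**Figure D5:**
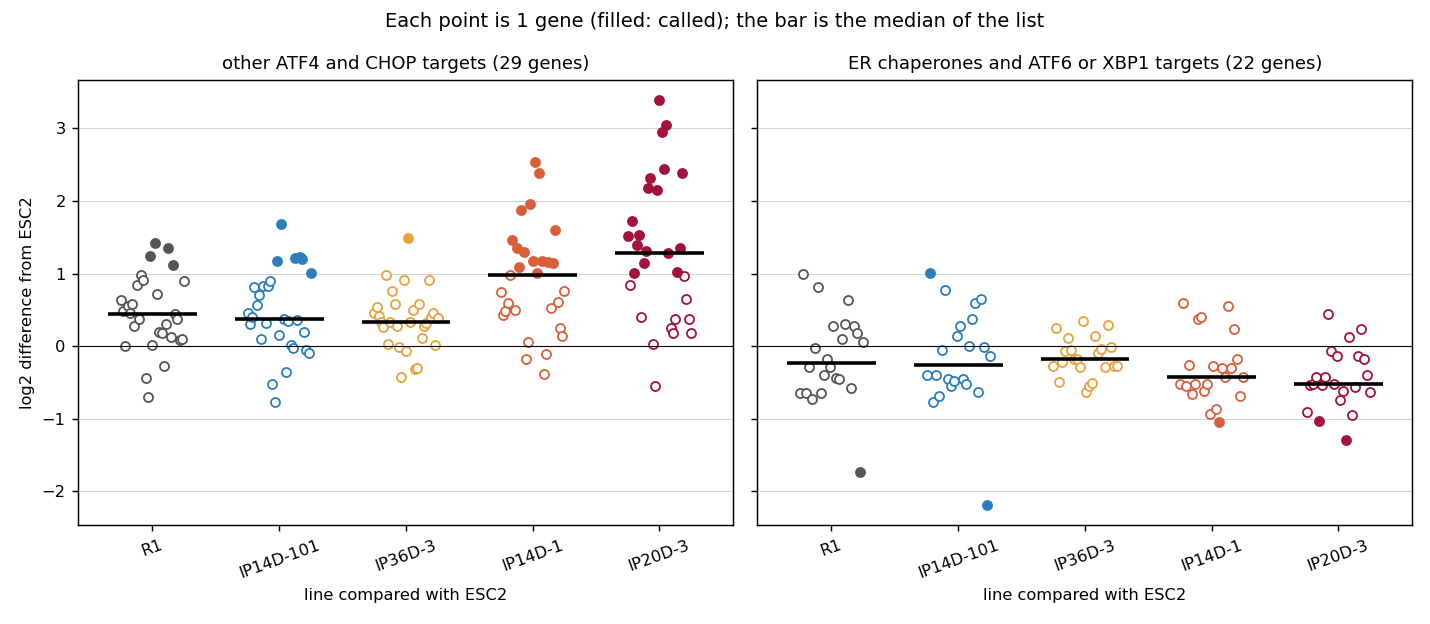
Each point is 1 gene, with the log2 difference from ESC2 on the vertical axis and the 5 other lines on the horizontal axis, filled where called, and the bar is the median of the list. The 29 further ATF4 and CHOP targets have medians of 1.29 in IP20D-3 and 0.98 in IP14D-1, and the 22 ER chaperones and ATF6 or XBP1 targets have medians of -0.52 and -0.42.

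Relatives of the 10 genes that are not known as targets of this arm were examined beside them. Of Chac2, Sesn1, Sesn3, Stc1, Trib1 and Trib2, none was called higher than ESC2 in any of the 5 lines. Chac2 was at 0.15 in IP20D-3 and -0.32 in IP14D-1, and Stc1 at -0.31 and 0.01. Trib2 was called lower in IP20D-3 (-3.50), IP14D-101 (-2.27) and R1 (-1.14). Over all genes, 3.44% were called either way in IP14D-1, 8.60% in IP20D-3, 3.38% in IP36D-3, 8.73% in IP14D-101 and 8.13% in R1. For lists as short as those given here, none called higher is near these shares. Of 11 p53 targets none was called higher than ESC2 in IP14D-1, IP20D-3 or IP36D-3, and 1, 2 and 4 were called lower, with Plk2 lower in all 3 lines. Of 9 measured targets of the oxidative stress factor NRF2 and 8 mitochondrial chaperones and proteases none was called higher in those 3 lines, and 1, the glutathione synthesis gene Gclm, was called lower in IP20D-3 (-1.49).

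The likeness of patterns was described by Pearson's r over the 18 arrays, which come from 6 lines and are not independent points, among 3939 genes with a varying level. Clone and predicted gene symbols were left out before the ranking. The genes most like Chac1 were the checkpoint gene Rad9a (0.97), the amino acid carrier subunit Slc3a2 (0.97) and the folate enzyme Mthfd2 (0.96), then Klf10 (0.95), the proton pump subunits Atp6v0d1 (0.94) and Atp6v0b (0.93), Cebpb (0.93) and Ddit3 (0.93). The genes most like Ddit3 were Stc2 (0.98), Natd1 (0.98), Herpud1 (0.97), Crebrf (0.96), Atf4 (0.96), Trib3 (0.96), Vldlr (0.96) and Hbp1 (0.96). Among the 10 genes the likeness to Ddit3 was lowest for Sesn2 (0.67) of those that were higher, and it was -0.81 for Hspa5. The members were chosen for a shared pattern, so these values describe the choice as well as the cells.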

How the data were processed

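Total RNA of 6 mouse lines was hybridised to 18 one-colour Affymetrix arrays. The deposited values are linear intensities that the authors made with the RMA method of Bioconductor, as the series design text and the submitters' notes on processing say. Its version is not stated in the sources used here. RMA forces arrays to a like distribution, so shifts shared by most genes are lost. Here the values were taken to log2, 64 control probe sets were left out, and limma 3.58.1 (R 4.3.3) was fitted to 45037 probe sets with a mean for each line (12 residual degrees of freedom), moderated variances and Benjamini-Hochberg adjustment over all probe sets. Gene-level counts used the probe set with the highest mean of each of 18193 genes. Of the probe sets, 34945 had 1 symbol in the platform annotation, 932 several and 9160 none. Promoters were taken from RefSeq (GRCm38.p6), and all 10 genes matched.

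The members, lists and tests were chosen with earlier results of these data known. Named genes were the 10 members, the list genes and the 8 genes most like Chac1 and Ddit3 among genes with a line mean of at least 6 and a range of at least 1. That ranking left out clone and predicted gene symbols. List examples in the text are chosen from called genes after their values were seen. The number of arrays limits the precision. The fit was tested on simulated data. Of 45 pairs of same-numbered arrays from different lines, 12 had a correlation of deviations over 0.1 (range -0.29 to 0.30). The median correlation was 0.04, against -0.02 for other pairs, and 9 arrays matched best with an array of their own number. The numbers were not taken as pairs. For the members, array 3 was lower in 18 of 21 probe sets in both IP36D-3 and IP14D-1. Whether same-numbered arrays share a deviation in these genes was not tested. Alternatives were median centring, a repeated quantile normalisation, array weights, a filter on low probe sets, 1 probe set per gene, a replicate block and leaving out each array.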

Additional observations from a re-analysis of the deposited data

Results flagged for a closer look

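For 5 of the 21 probe sets, in 3 of the 10 genes, all arrays of the B6 x D2 iPS lines lay wholly above or wholly below ESC2. On these probe sets all arrays of the other iPS line, IP14D-101, lay on the opposite side of R1. The share of all probe sets with this pattern was not computed, so the count is not read as a result about these genes. The iPS minus ES difference of the B6 x D2 lines exceeded that of IP14D-101 and R1 by a log2 of 3.17 and 2.18 for Ddit3 (1417516_at and 1443897_at) and by 2.43 and 2.31 for Herpud1 (1448185_at and 1435626_a_at). For Hspa5 (1416064_a_at) it was -1.12, with the B6 x D2 lines below ESC2 and the mean of IP14D-101 above that of R1 by 0.03. There the lowest array of IP14D-101 read 11.748 and the highest of R1 11.746. The other Hspa5 probe sets, 1427464_s_at and 1447824_x_at, did not show this pattern. These differences of differences were not tested, they rest on 1 ES line in each arm, and the genes were chosen with the ESC2 differences in view. Strain, line and medium cannot be told apart here.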

How the results depend on the processing

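The settings were run for the members' differences and for the counts of members and of further ATF4 and CHOP targets called. They were not run for single genes of the lists. No member difference that was called in the main fit or under a setting reversed its direction. The sign of differences called in neither was not followed. With 1 probe set per gene, which leaves at most 10 for the members, those called were 1 between IP20D-3 and IP14D-1, 6 between IP14D-1 and IP36D-3 and 7 between IP20D-3 and IP36D-3. Leaving out each array in turn, the further ATF4 and CHOP targets called ranged from 1 to 4 for IP36D-3 against ESC2 (4 without array 3 of IP36D-3, 2 without array 1 or array 2 of ESC2) and from 4 to 9 for IP14D-1 against IP36D-3. The members' probe sets called ranged from 8 to 14 of 21 for IP14D-1 against IP36D-3 and from 12 to 16 for IP20D-3 against IP36D-3. Differences near a log2 of 1 moved to either side of it: Trib3 (1456225_x_at, IP14D-1 against IP36D-3) was at 1.02 after a repeated quantile normalisation and 1.06 with array weights, Herpud1 (1435626_a_at, IP20D-3 against IP36D-3) at 1.02 and 1.05 under the same settings, and Stc2 (1419503_at) at 0.98 after median centring. With the replicate number as a block, the differences of means cannot move, because every line has arrays 1, 2 and 3. That setting therefore bears on the calls only, not on direction. None of its 97 results changed: each member difference kept its call, and each count stayed the same or within a set tolerance. The 3 arrays a line limit what can be called; dim probe sets near the array median are compressed.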
